A study of Homo sapiens with 6 samples.

Results

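Ribosome biogenesis begins in the nucleolus, where RNA polymerase I transcribes the precursor of the large ribosomal RNAs. Small nucleolar ribonucleoproteins (snoRNPs) guide its chemical modification, and assembly factors, helicases, GTPases and nucleases fold, cut and package it into the precursors of the small (40S) and large (60S) subunits. The pathway is one of the largest biosynthetic costs of a growing cell, and nucleolar size has long been used as a sign of tumour growth. The genes described here are 53 nucleolar factors of rRNA transcription, rRNA processing and subunit assembly. The rule took them by symbol, and all 53 were found among the 60656 genes of the count table. They comprise 3 factors of RNA polymerase I transcription, 4 of the box C/D snoRNP and 5 listed with the box H/ACA snoRNP. The others are 3 nucleolar chaperones, 19 factors of the small subunit processome and 40S assembly and 19 of 60S assembly.

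RNA was sequenced from parental ZR-75-1 cells, an established oestrogen receptor-positive human breast cancer line, grown with the solvent DMSO or with abemaciclib at 500 nM, each for 4 days. Abemaciclib inhibits the cyclin-dependent kinases CDK4 and CDK6, which act on the retinoblastoma protein at entry into S phase. Each group had 3 libraries, numbered replicates in the labels and described by the study as biological replicates, all of 1 cell line. Cells without RB1 were not analysed here.

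Total counts were between 3317860 and 3473916 per library in DMSO and between 3344919 and 4013156 with abemaciclib. Values are given in CPM, the count of a gene relative to the total of its library after adjustment by the trimmed mean of M values (TMM). A count of 0 allowed up to 3 counts, or 0.74 to 0.909 CPM by library, which covers counting error only. As a check of the labels, the proliferation marker MKI67 was at 526.7, 494 and 556.7 CPM in DMSO and at 4.236, 3.207 and 7.566 CPM with abemaciclib. All 7 luminal epithelial markers examined were detected in every library, with a summed level of 6662 to 7275 CPM in DMSO and 7564 to 8640 CPM with abemaciclib. KRT5, KRT14, TP63, COL1A2, PDGFRB, PTPRC, CD3E, PECAM1 and CDH5 were at 0 in every library. The fibroblast, leukocyte and endothelial lists summed to at most 15.75, 0.297 and 1.513 CPM, the fibroblast signal being COL1A1 alone. Abemaciclib replicate 3 stood apart. Its counts differed from those of the other abemaciclib libraries by 6.43 and 6.79 times sampling noise (chi-square over its degrees of freedom), against 2.78 to 3.99 for the other pairs of replicates, and it held the largest mitochondrial share, 18.27% against 15.59% to 16.61% elsewhere.

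Most nucleolar factors did not pass the test. Of the 51 factors with enough counts, 6 were lower with abemaciclib (FBL, NPM1, NOP56, GNL2, NOP58 and NCL) and 1 was higher (NOLC1), at an adjusted P under 0.05 by edgeR's quasi-likelihood test across 10863 genes. The share that fell was 11.8%, against 13.3% of all genes tested. The share that rose was 1.96%, against 12.5% of all genes. At an unadjusted P under 0.05 the counts were 6 lower and 3 higher, and DESeq2 gave 5 lower and 0 higher. The count that fell was 3 without DMSO replicate 3 or without abemaciclib replicate 2, and the count that rose was 2 without abemaciclib replicate 1 and 0 without abemaciclib replicate 2 or any 1 DMSO library. Their log2 fold changes had a median of -0.005, beside -0.002 over all genes. A log2 difference above 0.5 in size was seen for 2 factors, FBL and GNL2, or 3.92%, against 32.2% of all genes. The nucleolar factors had more counts than most genes, with a median level of 54.52 CPM against 24.97 CPM. At a mean of at least 50 CPM, the share past 0.5 was 3.7% of 27 factors (FBL) and 20.9% of 3329 genes.

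**Figure D1:**
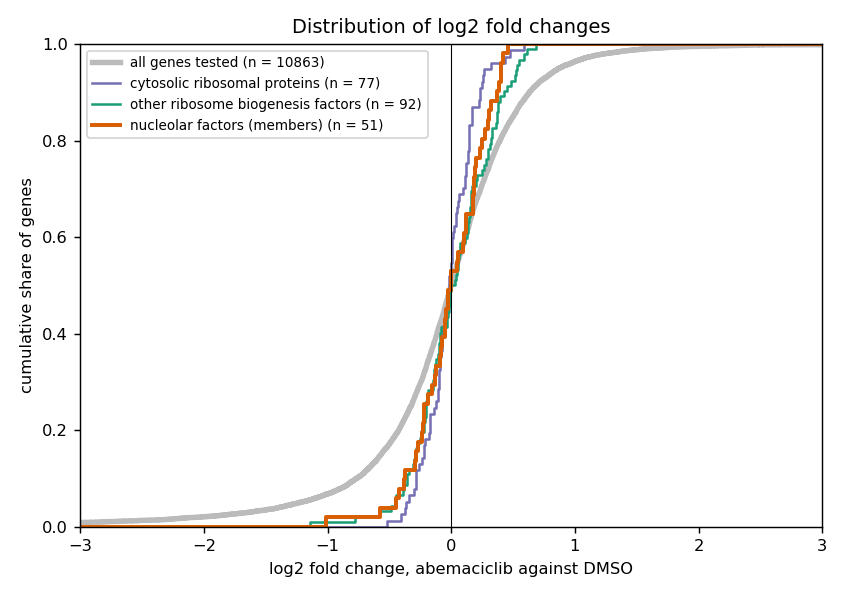
Cumulative share of genes (vertical axis) against log2 fold change, abemaciclib against DMSO (horizontal axis), for all 10863 genes tested, the 51 nucleolar factors, 92 other ribosome biogenesis factors and 77 cytosolic ribosomal proteins. The 3 ribosome lists rise steeply around 0, while all genes spread further to both sides, and FBL forms the lone step of the nucleolar factors near -1.01.

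A count of libraries that do not overlap draws on the same values as the calls and is no separate support for them. Every abemaciclib library lay below every DMSO library for 10 factors, or above it for 5, and the groups overlapped for the other 36. Over all genes, 20.1% lay wholly below and 19.1% wholly above. Besides the 6 called factors, those wholly below were NHP2, NOL11, RRP1B and PPAN. Those wholly above were NOLC1, NOP10, NOL6, WDR12 and NIP7. Among the 27 factors with a mean of at least 50 CPM, where the test has the most counts to work with, 5 were lower and 1 was higher. Of 3329 genes at that level, 17.1% were lower and 20.9% higher. The 24 factors under 50 CPM held the other lower call, GNL2.

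The absence of a call left a bounded range for each factor. Of the 44 factors that were not called, the 95% interval of the fold change stayed within 1.5-fold in either direction for 26 and within 2-fold for all 44. The intervals come from edgeR's fit with the spread of all 6 libraries, and differences inside them remain possible for the uncalled factors.

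**Figure D2:**
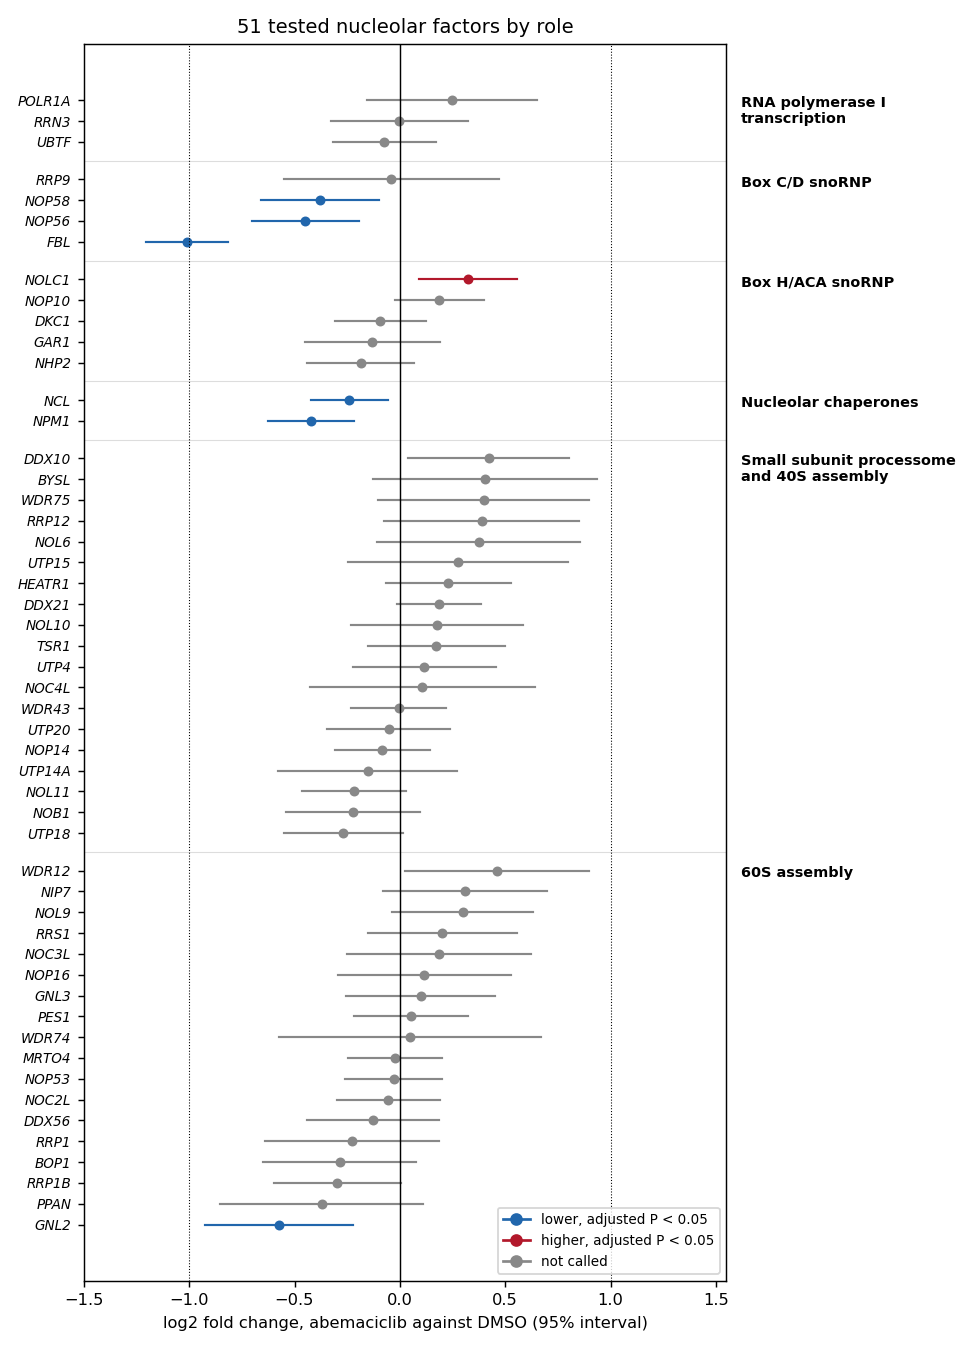
Log2 fold change, abemaciclib against DMSO, of the 51 tested nucleolar factors (points) with the 95% interval (lines), grouped by role; blue marks an adjusted P under 0.05 and lower, red higher, grey not called, and dotted lines mark a log2 fold change of -1 and 1. The lower calls sit in the box C/D snoRNP, the chaperones and, as GNL2, 60S assembly, and most intervals of the 40S and 60S groups cross 0.

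Promoter sequence is shown for the called factors with an entry in the RefSeq promoter table (GRCh38.p14, 250 bases before to 50 after the annotated start), which held 46 of the 53 genes. The letters are given 5′ to 3′ on the strand of the gene, in lower case, with any E-box (CACGTG, the same on either strand) in capitals. The E-box is the element bound by MYC with MAX, among other factors, and is known from many genes of this pathway. FBL (chr19:39846330-39846629, minus strand) and GNL2 (chr1:37595888-37596187, minus strand) each held 1 E-box, beginning 7 and 4 bases past the start. NPM1 (chr5:171387599-171387898, plus strand), NOP56 (chr20:2652382-2652681, plus strand) and NCL (chr2:231464435-231464734, minus strand) held none in this window.
FBL: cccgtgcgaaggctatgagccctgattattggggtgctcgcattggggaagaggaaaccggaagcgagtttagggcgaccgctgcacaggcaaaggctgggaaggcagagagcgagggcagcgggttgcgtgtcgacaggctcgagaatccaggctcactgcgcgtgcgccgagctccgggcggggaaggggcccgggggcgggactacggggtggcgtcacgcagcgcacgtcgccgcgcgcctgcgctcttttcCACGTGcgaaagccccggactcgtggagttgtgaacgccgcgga
GNL2: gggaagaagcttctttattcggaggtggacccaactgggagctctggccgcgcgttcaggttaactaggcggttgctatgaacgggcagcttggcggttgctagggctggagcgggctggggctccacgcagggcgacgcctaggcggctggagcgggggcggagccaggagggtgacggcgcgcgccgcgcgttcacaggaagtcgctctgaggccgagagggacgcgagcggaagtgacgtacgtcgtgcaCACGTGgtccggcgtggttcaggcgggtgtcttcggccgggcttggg
NPM1: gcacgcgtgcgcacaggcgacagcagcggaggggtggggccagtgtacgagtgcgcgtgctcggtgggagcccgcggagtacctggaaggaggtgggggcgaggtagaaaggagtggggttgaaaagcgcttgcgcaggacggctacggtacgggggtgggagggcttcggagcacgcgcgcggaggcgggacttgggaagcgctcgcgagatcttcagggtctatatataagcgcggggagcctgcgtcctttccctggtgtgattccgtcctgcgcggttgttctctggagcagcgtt
NOP56: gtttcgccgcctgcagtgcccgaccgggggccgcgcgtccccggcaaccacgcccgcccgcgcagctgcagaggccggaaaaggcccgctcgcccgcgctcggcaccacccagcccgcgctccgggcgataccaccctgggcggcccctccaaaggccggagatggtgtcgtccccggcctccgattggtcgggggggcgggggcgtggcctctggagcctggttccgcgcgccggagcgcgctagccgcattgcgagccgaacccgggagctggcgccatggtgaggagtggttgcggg
NCL: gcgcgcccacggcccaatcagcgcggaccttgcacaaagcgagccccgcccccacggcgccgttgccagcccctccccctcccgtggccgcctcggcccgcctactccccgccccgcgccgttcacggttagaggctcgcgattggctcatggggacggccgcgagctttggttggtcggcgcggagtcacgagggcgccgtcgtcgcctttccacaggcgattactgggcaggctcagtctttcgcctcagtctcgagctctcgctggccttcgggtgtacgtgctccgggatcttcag

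The E-box was found in 16 of the 46 promoters, or 34.8%, against 10.5% of the promoters of all genes tested, 7.43% of the whole table and 32.1% of the other ribosome biogenesis factors. In 15 of those 16 it began within 50 bases of the start, a share of 93.8%, against 42% of the tested genes that held an E-box. The exception was UTP14A. Of the 15 tested factors with an E-box, 2 fell and 0 rose, and their log2 differences had a median of -0.02. Of the 29 without it, 3 fell and 0 rose, and the median was -0.002. Beside these counts, 13.3% of all genes tested fell and 12.5% rose. NOLC1, the only factor that rose, and NOP58 had no promoter entry, so a rise could not be counted in either set. Over all genes, 9.89% of the promoters of genes that fell and 10.3% of those that rose held the element. The E2F motif was searched as TTTCCCGC, TTTGGCGC, TTTCGCGC and TTTGCCGC on both strands, and no match overlapped an E-box. It was found in 2 nucleolar promoters, those of UTP15 and PES1, or 4.35%, against 5.7% of genes tested, 9.54% of genes that fell and 3.62% of genes that rose. A match is a stretch of letters, not a bound site.

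The 4 factors of the box C/D snoRNP, the particle that guides 2′-O-methylation of rRNA, gave 3 of the 6 lower calls. By DESeq2, 2 of the 4 were lower. Of all genes tested by edgeR, 13.3% were lower, and a difference from that share was not tested. The 4 factors are not the whole particle. SNU13, its core protein that binds the guide RNA, is among the other biogenesis factors and went the other way. SNU13, named after its values were seen, was at 134.6, 139.3 and 119.6 CPM in DMSO and at 183.6, 169 and 158.9 CPM with abemaciclib, and rose by 0.38 on the log2 scale (SE 0.11, edgeR adjusted P = 0.0109). Its call was lost without DMSO replicate 3 (edgeR adjusted P = 0.0706) or abemaciclib replicate 1 (edgeR adjusted P = 0.051).

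FBL encodes fibrillarin, the methyltransferase of the particle. The gene lies on chr19:39834458-39846379 (GENCODE release 44, GRCh38), and no other gene is annotated at its 3′ end, where these libraries read. FBL was at 373, 379.9 and 382.3 CPM in DMSO and at 191.5, 192.2 and 180 CPM with abemaciclib. The groups were far apart and each was tight, with means of 378.4 ± 4.814 and 187.9 ± 6.876 CPM (SD, n = 3). FBL fell by 1.01 on the log2 scale (SE 0.10, edgeR adjusted P = 2.36e-09), a change of -50.35% that was seen in 3 of 3 abemaciclib libraries. With any library left out, its log2 fold change was between -1.02 and -0.98.

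NOP56 and NOP58 encode the paired scaffold proteins of the same particle. NOP56 was at 102.4, 101 and 107.2 CPM in DMSO and at 69.58, 85.12 and 72.41 CPM with abemaciclib, without overlap. It fell by 0.45 on the log2 scale (SE 0.12, edgeR adjusted P = 0.00749). NOP58 was at 90.78, 81.99 and 101.5 CPM in DMSO and at 69.58, 59.46 and 81.87 CPM with abemaciclib. The highest abemaciclib library came next to the lowest DMSO library. NOP58 fell by 0.38 (SE 0.14, edgeR adjusted P = 0.0406). Its call was lost with DESeq2 (adjusted P = 0.0991) and, by edgeR, when 1 library was left out (adjusted P = 0.0906 for DMSO replicate 1, 0.181 for DMSO replicate 3, 0.0813 for abemaciclib replicate 1 and 0.231 for abemaciclib replicate 2). A gene on the opposite strand overlaps the 3′ end of NOP58, and without strand the reads of the pair cannot be told apart. RRP9, the protein specific to the U3 particle, was between 12.77 and 19.08 CPM in DMSO and between 13.78 and 17.85 CPM with abemaciclib, a log2 difference of -0.04 (95% interval -0.55 to 0.47).

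The box H/ACA snoRNP guides pseudouridylation. Of the 5 factors listed with it, 0 were lower and 1 was higher by edgeR. The counts were 0 and 1 at an unadjusted P under 0.05 and 0 and 0 by DESeq2. The higher call was that of NOLC1, which serves both snoRNP classes, and no core protein of the particle was called. The difference from the box C/D particle was not tested. DKC1, the pseudouridine synthase dyskerin, was at 381.4, 413.2 and 471.6 CPM in DMSO and at 428.4, 422.1 and 337.5 CPM with abemaciclib. Its groups overlapped, with a log2 difference of -0.09 (SE 0.10, 95% interval -0.31 to 0.12, edgeR adjusted P = 0.578). The core proteins NHP2, GAR1 and NOP10 had log2 differences of -0.19, -0.13 and 0.19 and none was called. NOLC1, also known as Nopp140, a chaperone of both snoRNP classes, was the only factor that rose. It was at 103.5, 95.65 and 95.41 CPM in DMSO and at 118.6, 129.8 and 120.5 CPM with abemaciclib, without overlap. NOLC1 rose by 0.32 (SE 0.11, edgeR adjusted P = 0.0341). That call was lost with DESeq2 (adjusted P = 0.0517) and, by edgeR, when 1 library was left out (adjusted P = 0.0598, 0.127 and 0.103 for DMSO replicates 1, 2 and 3 and 0.13 for abemaciclib replicate 2). It was also lost with no filter on low counts (edgeR adjusted P = 0.0591), and the count of factors that rose was then 0.

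**Figure D3:**
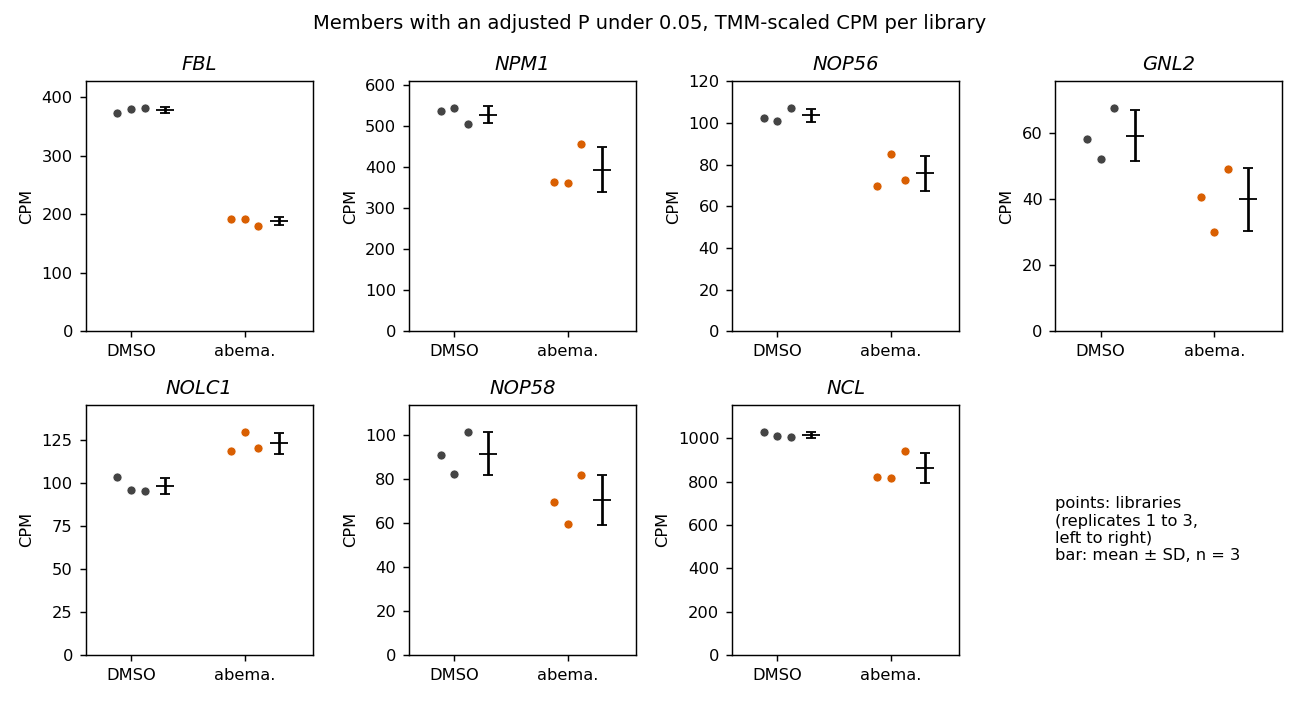
TMM-scaled CPM (vertical axes, from 0) of the 7 called nucleolar factors in each library, DMSO in grey and abemaciclib (abema.) in orange, with the mean and SD of 3 libraries beside the points. FBL separates widely, from 373 or more in DMSO to 192.2 or less with abemaciclib, while the NOP58 and NCL groups come close to each other and NOLC1 alone is higher with abemaciclib.

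Both nucleolar chaperones that could be tested were lower, beside 13.3% of all genes tested, and the call of NCL was lost in several alternative fits. NPM1, nucleophosmin, a histone and ribosome chaperone of the granular component, was at 536, 544.5 and 504 CPM in DMSO and at 364.3, 360.2 and 457.2 CPM with abemaciclib. Abemaciclib replicate 3 was the highest of its group and still below all DMSO libraries. NPM1 fell by 0.42 on the log2 scale (SE 0.10, edgeR adjusted P = 0.00203), and by 0.54 without that library. NPM1 has 49 annotated processed copies in the genome, whose counts summed to 20.67 per library on average beside 1616.8 for the gene itself, and reads shared between them could be split either way. NCL, nucleolin, an RNA-binding protein of the dense fibrillar component, was at 1031, 1012 and 1006 CPM in DMSO and at 822.9, 818.6 and 941.6 CPM with abemaciclib. Abemaciclib replicate 3 was again the one nearest to DMSO. NCL fell by 0.24 (SE 0.09, edgeR adjusted P = 0.0458). Its call was lost without any 1 of 5 libraries, with edgeR adjusted P values of 0.135, 0.128 and 0.0928 without DMSO replicates 1, 2 and 3 and of 0.141 and 0.173 without abemaciclib replicates 1 and 2. It was also lost with no filter on low counts (edgeR adjusted P = 0.069) and was kept without abemaciclib replicate 3. NPM3, a relative of NPM1, had 0 counts in 5 libraries and 0.5404 CPM in abemaciclib replicate 3, and was not tested.

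None of the 3 factors of RNA polymerase I transcription was called by edgeR at an adjusted or an unadjusted P under 0.05, nor by DESeq2. POLR1A, the catalytic subunit, was at 22.91, 21.98 and 26.96 CPM in DMSO and at 31.77, 25.91 and 27.83 CPM with abemaciclib, a log2 difference of 0.25 (SE 0.20, 95% interval -0.16 to 0.65, edgeR adjusted P = 0.396). UBTF, which binds and opens the rRNA gene promoter, was at 134.3, 130.4 and 165.4 CPM in DMSO and at 146.7, 144.3 and 117.5 CPM with abemaciclib. Its log2 difference was -0.07 (SE 0.12, 95% interval -0.32 to 0.17, edgeR adjusted P = 0.71). RRN3 joins the polymerase to the promoter-bound factors. It was at 66.42, 65.95 and 58.46 CPM in DMSO and at 52.94, 54.03 and 83.49 CPM with abemaciclib, with abemaciclib replicate 3 above and the others below every DMSO library. The log2 difference of RRN3 was -0.002 (SE 0.16, 95% interval -0.33 to 0.32, edgeR adjusted P = 0.994), and 3 annotated copies of it held 31.5 counts per library beside 224.5 for the gene.

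Of the 19 factors of the small subunit processome and 40S assembly, 0 were called in either direction by edgeR and 0 by DESeq2, and 1, DDX10, had an unadjusted P under 0.05. Their median log2 difference was 0.17, with 12 above 0 and 7 below, and a range from -0.27 for UTP18 to 0.42 for DDX10. DDX10, an RNA helicase, was at 33.94, 50.8 and 39.07 CPM in DMSO and at 45.08, 46.63 and 74.03 CPM with abemaciclib (edgeR adjusted P = 0.0977). The largest value was that of abemaciclib replicate 3, without which the log2 difference was 0.15 (adjusted P = 0.6). Without abemaciclib replicate 1, DDX10 was called higher (log2 0.55, adjusted P = 0.0424). The factors of the early complex that joins the nascent transcript had log2 differences of 0.12 for UTP4, 0.28 for UTP15, -0.22 for NOL11, -0.005 for WDR43, 0.40 for WDR75 and 0.23 for HEATR1. Further processome factors had values of -0.15 for UTP14A, -0.05 for UTP20, 0.37 for NOL6, 0.18 for NOL10, -0.08 for NOP14 and 0.11 for NOC4L.

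The factors of later 40S maturation and the helicase DDX21 were spread in the same way. BYSL, RRP12 and TSR1 had log2 differences of 0.40, 0.39 and 0.17. NOB1, the nuclease that makes the mature end of 18S rRNA, was at 72.8, 54.36 and 76.63 CPM in DMSO and at 49.62, 55.51 and 69.17 CPM with abemaciclib. The groups overlapped, with a log2 difference of -0.22 (SE 0.15, 95% interval -0.54 to 0.09, edgeR adjusted P = 0.32). DDX21, a helicase that also acts in RNA polymerase I transcription, was between 430.4 and 450.4 CPM in DMSO and between 444.7 and 568.5 CPM with abemaciclib, a log2 difference of 0.18 (edgeR adjusted P = 0.176).

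Among 60S assembly factors, 18 of 19 were tested and 1 was called, GNL2, which fell. GNL2 encodes a GTPase of pre-60S particles. It was at 58.01, 51.98 and 67.55 CPM in DMSO and at 40.54, 30.1 and 48.91 CPM with abemaciclib, without overlap. GNL2 fell by 0.57 on the log2 scale (SE 0.17, edgeR adjusted P = 0.0133). Its call was lost without DMSO replicate 3 (edgeR adjusted P = 0.085) or without abemaciclib replicate 2 (edgeR adjusted P = 0.118). The gene DNALI1 overlaps its 3′ end on the opposite strand. GNL3, the related GTPase nucleostemin, was at 53.08, 41.59 and 43.01 CPM in DMSO and at 62.93, 42.44 and 42.69 CPM with abemaciclib, a log2 difference of 0.10 (SE 0.17, 95% interval -0.25 to 0.45, edgeR adjusted P = 0.733). The sign of the latter rested on abemaciclib replicate 1, the highest library, without which it was -0.11.

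PES1, BOP1 and WDR12 form a stable complex needed for processing of the large subunit rRNAs, and none of the 3 was called by edgeR or DESeq2. PES1 was at 73.67, 78.72 and 63 CPM in DMSO and at 78.05, 74.01 and 71.33 CPM with abemaciclib. Its log2 difference was 0.05 (SE 0.13, 95% interval -0.22 to 0.32, edgeR adjusted P = 0.824). BOP1 had a log2 difference of -0.29 and WDR12 of 0.46, on opposite sides of PES1. WDR12 was at 16.53, 19.31 and 21.51 CPM in DMSO and at 26.02, 30.1 and 22.7 CPM with abemaciclib, without overlap (edgeR adjusted P = 0.115, unadjusted P under 0.05). The other uncalled 60S factors with enough counts had log2 differences from -0.37 for PPAN to 0.31 for NIP7. Between them lay RRP1B at -0.30, RRP1 at -0.23, DDX56 at -0.13, NOC2L at -0.05, NOP53 at -0.03, MRTO4 at -0.02, WDR74 at 0.05, NOP16 at 0.12, NOC3L at 0.19, RRS1 at 0.20 and NOL9 at 0.30. NOP2, an rRNA methyltransferase, was between 0.2702 and 1.212 CPM over all libraries and was not tested. An annotated gene without a symbol covers its 3′ end on the same strand and had no counts here, so this level was not read as low expression.

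The role medians by library describe the same values that gave the calls and are no separate support for them. Set against the DMSO mean of each gene, the median log2 level of the 4 box C/D factors was -0.01, -0.09 and 0.10 in DMSO and -0.48, -0.45 and -0.36 with abemaciclib. SNU13, the core protein that rose, is not in this median. For the 5 factors listed with box H/ACA, NOLC1 among them, the values were -0.0005, -0.03 and 0.02 in DMSO. With abemaciclib they were 0.03, 0.006 and 0.07. The 19 factors of 40S assembly gave -0.05, -0.02 and 0.13 in DMSO and 0.03, 0.25 and 0.06 with abemaciclib, with overlap. The 18 factors of 60S assembly gave -0.03, 0.005 and 0.04 in DMSO and 0.06, -0.04 and -0.04 with abemaciclib, again with overlap.

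**Figure D4:**
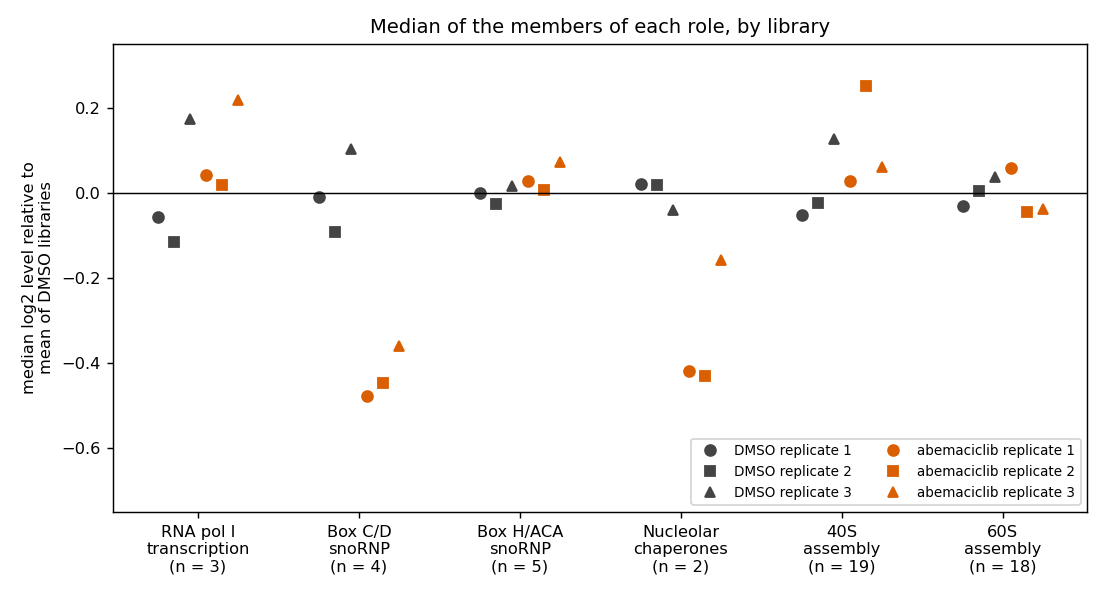
Median log2 level of the tested factors of each role in each library, set against the DMSO mean of each gene (vertical axis); grey is DMSO, orange is abemaciclib, and circles, squares and triangles are replicates 1, 2 and 3. The box C/D snoRNP and the chaperones (for which n = 2) lie lower in all 3 abemaciclib libraries, and the other roles overlap.

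The difference in the summed level of the nucleolar factors lay in few genes. The 53 genes summed to 5642.4, 5622.7 and 5840.9 CPM in DMSO and to 5171.9, 5158.1 and 5355 CPM with abemaciclib, means of 5702 ± 120.7 and 5228.3 ± 109.9 CPM (SD, n = 3). The difference of the means was -473.7 CPM. FBL, NPM1 and NCL together differed by -480.1 CPM and the other 50 genes by 6.369 CPM, from 3779.1 ± 147 to 3785.5 ± 8.615 CPM. These 3 genes were singled out after their values were seen. In bulk RNA, fewer transcripts in each cell and fewer cells with the transcript cannot be told apart, and a total given as CPM says nothing of RNA per cell.

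Taken as a median over the factors, the spread between replicates was alike in the groups. The median coefficient of variation of the tested factors was 11.6% in DMSO and 12.9% with abemaciclib, and the largest of any was 43.9%. Abemaciclib replicate 3 was the library farthest from its group mean for 18 of the 51 factors, against 4 to 9 for each other library. Without it, 6 factors were lower and 1 higher, as with all libraries. Leaving it out moved the log2 difference of RRN3 from -0.002 to -0.25 and that of UTP14A from -0.15 to 0.11, neither called.

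Several nucleolar genes carry small nucleolar RNAs in their introns. In GENCODE, 10 of the factors held 29 such RNAs within their span, among them NOP56 with 5, NOP58 with 4 and NCL with 3. Of these 10 hosts 3 fell (NOP56, NOP58 and NCL) and 0 rose, beside 13.3% and 12.5% of all genes tested. The calls of NOP58 and NCL were each lost in some alternative fits. The median log2 difference of the hosts was -0.15, and a difference between hosts and other factors was not tested. Of the other 41 tested factors 3 fell and 1 rose, and the median was 0.05. The libraries read the ends of polyadenylated transcripts, so the small RNAs themselves were not measured. Another gene overlapped the last 500 bases on the opposite strand for 10 factors and on the same strand for 3. Of the 39 tested factors with neither, 4 were lower and 1 higher.

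The rest of the pathway gave context in the same fit. Of 95 other ribosome biogenesis factors, 92 were tested. Of these, 5 fell (5.43%) and 11 rose (12%), beside 13.3% and 12.5% of all genes tested. Their median log2 difference was 0.02. Factors of RNA polymerase I transcription were called in both directions. TAF1B, a subunit of its promoter selectivity factor, went from 14.93 ± 0.756 to 6.766 ± 1.957 CPM (n = 3 each) and fell by 1.15 on the log2 scale (edgeR adjusted P = 0.00667). TCOF1, the treacle protein of rRNA transcription, went from 100.8 ± 5.287 to 58.66 ± 8.429 CPM (n = 3 each) and fell by 0.78 (edgeR adjusted P = 5.14e-05). Of the 7 other polymerase I subunits listed, all tested, 0 fell and 1 rose by edgeR. This was POLR1B, named after its values were seen, which went from 27.06 ± 5.153 to 39.65 ± 1.113 CPM (n = 3 each) and rose by 0.55 (edgeR adjusted P = 0.0258). The call of POLR1B was lost with DESeq2 (adjusted P = 0.0628) and, by edgeR, when 1 library was left out (adjusted P = 0.136 and 0.0932 for DMSO replicates 1 and 2, and 0.0611 and 0.0615 for abemaciclib replicates 1 and 2). POLR1C had a log2 difference of 0.52 and was not called (edgeR adjusted P = 0.211).

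RSL24D1 and WDR18, which act in 60S assembly, fell by 0.49 and 0.45, and BMS1, a GTPase of the processome, fell by 0.45. The largest rises were those of BUD23 at 0.69, an 18S rRNA methyltransferase, RCL1 at 0.61 and UTP3 at 0.59. The calls of WDR18, BMS1, RCL1 and UTP3 were each lost in some fits with 1 library left out. That of WDR18 was also lost with DESeq2 (adjusted P = 0.0759). The groups of WDR18 and of UTP3 overlapped. Without DMSO replicate 2 or DMSO replicate 3, the count that rose was 7 or 6.

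Of 79 cytosolic ribosomal protein genes, 77 were tested. Of these, 10 fell (13%) and 3 rose (3.9%), beside 13.3% and 12.5% of all genes tested. The median log2 difference was -0.02. Many ribosomal protein genes have processed copies that can take or lend reads. The count that fell was 17 without abemaciclib replicate 3, 6 without DMSO replicate 1 and 5 without DMSO replicate 2. The count that rose was 7 without abemaciclib replicate 1, 5 without abemaciclib replicate 2, 5 with DESeq2 and 8 with no filter on low counts.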

How the data were processed

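RNA of 6 libraries of parental ZR-75-1 cells was read with a 3′ mRNA kit, so a count stands for a transcript end whatever the length of the transcript. The deposited values are raw counts per gene: per the labels and the methods, the authors trimmed single-end reads, aligned them to hg38 with STAR 2.7.5b and counted them with featureCounts 2.0.1. Whether the counting used the strand is not given in the sources used here. No molecular identifiers are described, so limits from counts cover counting error only. Libraries were grouped by the treatment in the labels.

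The 53 members and the other gene lists were chosen with earlier results of these data known. Genes were matched by Ensembl identifier to GENCODE release 44 (GRCh38). All genes were fitted in edgeR 4.0.16 (R 4.3.3) with filterByExpr, TMM factors, glmQLFit and glmQLFTest, treatment as the only term, and P values adjusted by Benjamini-Hochberg across 10863 genes (threshold 0.05). SE is the log2 fold change over the square root of F. The fit was tested on simulated data with changes of a single fixed size and the same spread for every gene. That test did not cover smaller changes or a library that stands apart. The biological coefficient of variation was 13.2%. Alternatives were DESeq2 1.42.0, its size factors in edgeR, total counts only, no filter, at least 10 counts in all libraries, the replicate number as a block, and leaving out each library. Factors given in full were chosen by role or as called, and the other biogenesis factors named are the 3 largest rises and 5 largest falls with a mean of at least 5 CPM. SNU13, POLR1B, POLR1C, sums, non-overlap, level splits, E-box positions and snoRNA hosts were examined after the values were seen.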

Additional observations from a re-analysis of the deposited data

How the results depend on the processing

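FBL, NPM1 and NOP56 kept their calls under all 12 alternatives, and 4 of the 7 called factors lost theirs under some. The count of nucleolar factors that fell was 5 with DESeq2, with no filter and with the replicate block, and 3 to 6 with a library left out, at its lowest of 3 without DMSO replicate 3 or abemaciclib replicate 2. The count that rose was 0 with DESeq2, with no filter and with the replicate block, and 0 to 2 with a library left out. Libraries with the same replicate number showed no shared deviation (correlations of -0.0434, 0.00705 and -0.0893). The labels do not say whether the same number means a shared culture or batch. Under the replicate block NCL and NOLC1 lost their calls (edgeR adjusted P = 0.101 and 0.0733). Of other biogenesis factors, 6 to 11 rose with a library left out. Of ribosomal proteins, 5 to 17 fell and 2 to 7 rose with a library left out, and 5 rose with DESeq2 and 8 with no filter. Uncalled log2 differences near 0 changed sign. RRN3 was at 0.00477 with DESeq2, 0.000378 with its size factors and 0.00363 with no filter. With a library left out, RRN3 ranged from -0.25 to 0.11, UBTF from -0.14 to 0.041, DKC1 from -0.16 to 0.013, GNL3 from -0.11 to 0.21 and PES1 from -0.034 to 0.12. The median over the nucleolar factors stayed between -0.03 and 0.04. No scaling moved the median of all genes by over 0.1. NPM3 and NOP2 had too few counts to be tested.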
